A study of Mus musculus with 16 samples.

Results

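10 collagen genes were followed through both RNA-seq experiments of a study of Sin3B in pancreatic cancer cells, and were taken by exact symbol from each deposited count table. They are the fibrillar collagens Col1a1, Col3a1, Col5a1, Col5a2 and Col11a1, the fibril-associated collagens Col12a1, Col14a1 and Col16a1, and the type VI chains Col6a1 and Col6a2. All 10 symbols were present once among the 55414 features of the first table and the 56980 of the second. KPC1199 is a mouse pancreatic cancer line from the KPC model, in which Cre under the Pdx promoter acts in pancreatic cells together with mutant Trp53, and every group shares this background. The untreated experiment held 2 sgCtrL libraries, with a non-targeting guide and labelled WT, and 2 Sin3Bsg1 libraries, with a guide against Sin3B and labelled Sin3B knockout. The IFNγ experiment held 3 libraries each of sgCtrL and Sin3Bsg1 cells without IFNγ, and 3 each given IFNγ at 10 ng/ml for 24 h. Both lines were made with a lentiviral Cas9 and guide vector and puromycin, a single Sin3B guide was sequenced, and the labels do not say whether the replicates came from separate cultures. The study's methods state in general that results came from independent experiments, without tying this to the sequenced libraries, so the p-values measure the spread between these libraries, which may be technical.

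Collagens are triple helices of 3 chains that are folded in the endoplasmic reticulum, secreted and assembled outside the cell. Fibrillar collagens build the tension-bearing fibers of connective tissue, fibril-associated collagens sit on the surface of those fibers, and type VI collagen forms a beaded network near the cell surface. The dense matrix of pancreatic tumors is rich in fibrillar collagen. SIN3B is a scaffold of histone deacetylase complexes, and IFNγ is a cytokine made by T cells and natural killer cells.

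The guide is shown first because it defines the knockout, in lower case with the adjoining PAM in capitals.
Sin3Bsg1: tggctcccgctggggtcgttCGG
It matched the GRCm39 genome once, at chr8:73449982-73450001 on the plus strand, within the coding part of Sin3b exon 1. The 250 bases before the start site are shown for the most abundant fibrillar chain, the paired type VI chains and the most abundant fibril-associated chain, from the RefSeq promoter table of build GRCm38.p6, in which 6 of the 10 genes were found. Capitals mark matches on either strand to the CCAAT box, the TATA box in the form TATAAA, and the GC box in the form GGGCGG, overlapping matches included.
Col3a1, chr1:45311288-45311537, plus strand: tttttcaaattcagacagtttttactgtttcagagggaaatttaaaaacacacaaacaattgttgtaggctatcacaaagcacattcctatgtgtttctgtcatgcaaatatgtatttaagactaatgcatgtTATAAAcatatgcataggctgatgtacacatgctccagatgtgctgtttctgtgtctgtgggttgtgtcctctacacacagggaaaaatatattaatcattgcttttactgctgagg
Col6a1, chr10:76726045-76726294, minus strand: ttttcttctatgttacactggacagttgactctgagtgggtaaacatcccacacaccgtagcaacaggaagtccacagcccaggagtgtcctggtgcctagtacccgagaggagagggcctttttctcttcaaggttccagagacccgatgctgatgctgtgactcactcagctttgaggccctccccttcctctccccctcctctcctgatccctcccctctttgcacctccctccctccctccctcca
Col6a2, chr10:76623405-76623654, minus strand: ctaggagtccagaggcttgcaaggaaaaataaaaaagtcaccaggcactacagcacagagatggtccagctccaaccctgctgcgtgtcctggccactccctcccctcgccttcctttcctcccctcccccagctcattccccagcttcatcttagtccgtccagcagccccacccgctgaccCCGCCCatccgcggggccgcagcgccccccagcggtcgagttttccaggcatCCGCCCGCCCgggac
Col16a1, chr4:130047590-130047839, plus strand: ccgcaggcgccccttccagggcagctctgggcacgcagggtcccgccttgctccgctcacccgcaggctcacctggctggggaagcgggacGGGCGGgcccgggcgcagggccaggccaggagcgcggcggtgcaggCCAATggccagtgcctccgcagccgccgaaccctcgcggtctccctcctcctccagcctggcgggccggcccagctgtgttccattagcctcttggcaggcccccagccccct
Col3a1 held TATAAA 117 bases before its start site and 0 CpG dinucleotides, where the median of 32851 promoters was 6. The window of Col6a2, the more downstream of its 2 listed start sites, held 3 GGGCGG matches, 2 of them overlapping, and the Col6a1 window held no match to these motifs. Col16a1 had 1 match to the CCAAT box, 1 to the GC box and 21 CpG dinucleotides. Of all promoters in the table, 12.4% held the TATA box form, 32.7% the GC box and 33.8% the CCAAT box in a window of this length. Promoters of Col1a1, Col5a2, Col12a1 and Col14a1 are not shown.

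Libraries held between 29683181 and 32311721 estimated counts in the untreated experiment and between 18128055 and 27056903 in the IFNγ experiment. Replicate 1 of sgCtrL with IFNγ stood apart from replicates 2 and 3, at a chi-square of 23.2 and 19.5 averaged over genes, against 4.12 between those 2. To a smaller extent, replicate 1 of Sin3Bsg1 with IFNγ was also farther from replicates 2 and 3, at 6.91 and 9.63, against 3.52. Sin3b, the targeted gene, was lower in Sin3Bsg1 by 1.28 to 1.22 on the log2 scale over the 3 settings, at 33.6 to 39.4 CPM (counts scaled to the size of the library) against 80.4 to 95.6 CPM in sgCtrL, so part of the transcript remained. Irf1, an interferon-induced transcription factor, rose with IFNγ by 3.51 ± 0.042 (log2, SE) in sgCtrL and 3.56 ± 0.042 in Sin3Bsg1 (edgeR adjusted p = 1.70e-18 and 1.31e-18, n = 3 in each group), with no overlap between the groups in either genotype. The pancreatic ductal markers Krt8, Krt18, Krt19, Krt7, Epcam, Cdh1 and Sox9 were all detected in every group.

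The 10 genes were located in the GRCm39 genome as annotated by GENCODE vM39, a later build than that of the promoters above. Col3a1 (ENSMUSG00000026043, chr1:45350698-45395840, plus strand) and Col5a2 (ENSMUSG00000026042, chr1:45412554-45542442, minus strand) lie near each other on opposite strands. Chromosome 10 holds Col6a2 (ENSMUSG00000020241, chr10:76429660-76459549, minus strand) and Col6a1 (ENSMUSG00000001119, chr10:76543440-76562283, minus strand). The others are Col1a1 (ENSMUSG00000001506, chr11:94827050-94843868), Col5a1 (ENSMUSG00000026837, chr2:27776397-27929526), Col11a1 (ENSMUSG00000027966, chr3:113824134-114014367), Col14a1 (ENSMUSG00000022371, chr15:55171140-55384199) and Col16a1 (ENSMUSG00000040690, chr4:129941154-129993076) on the plus strand, and Col12a1 (ENSMUSG00000032332, chr9:79506268-79626135) on the minus strand.

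Per unit of length, Col3a1, the chain of homotrimeric type III collagen, was the most abundant of the 10 transcripts in each of the 6 groups. This scale is TPM, for which each count was divided by the gene's length and scaled to the library. In sgCtrL cells without IFNγ, Col3a1 had 443 ± 12.04 TPM (SD, n = 3), followed by Col6a1 at 94.3 ± 1.49, Col6a2 at 67.7 ± 2.13, Col5a1 at 29.9 ± 0.406, Col16a1 at 16.9 ± 1.10 and Col1a1 at 4.32 ± 0.334 TPM, with no overlap between neighbours. Col1a1, which encodes the major chain of type I collagen, was thus a minor transcript in these cells. Col12a1 (1.35 ± 0.0902 TPM), Col14a1 (0.691 ± 0.161 TPM) and Col11a1 (0.306 ± 0.0331 TPM) were lower still. Col5a2, which pairs with Col5a1 in type V collagen, had 3 to 5 counts in each untreated library and 0 to 3 in each library of the IFNγ experiment. It did not pass edgeR's filter on low counts, no fold change is given for it, and 9 of the 10 genes were tested.

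The summed level of the 10 transcripts was lower in every library with IFNγ than in every library without it, in both genotypes. It was 659 ± 16.6 TPM in sgCtrL without IFNγ and 363 ± 22.8 TPM with IFNγ, and 557 ± 2.54 TPM in Sin3Bsg1 without IFNγ and 331 ± 15.2 TPM with it (SD, n = 3 in each group). In the untreated experiment it was 279 ± 0.890 TPM in sgCtrL and 115 ± 2.03 TPM in Sin3Bsg1 (SD, n = 2 in each group). Col3a1 made up 55.0% of the sum in untreated sgCtrL cells and 70.8% in sgCtrL cells with IFNγ, the lowest and highest group means. Because the libraries are bulk samples, fewer cells of a type that makes these transcripts and less RNA per cell cannot be told apart.

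**Figure D1:**
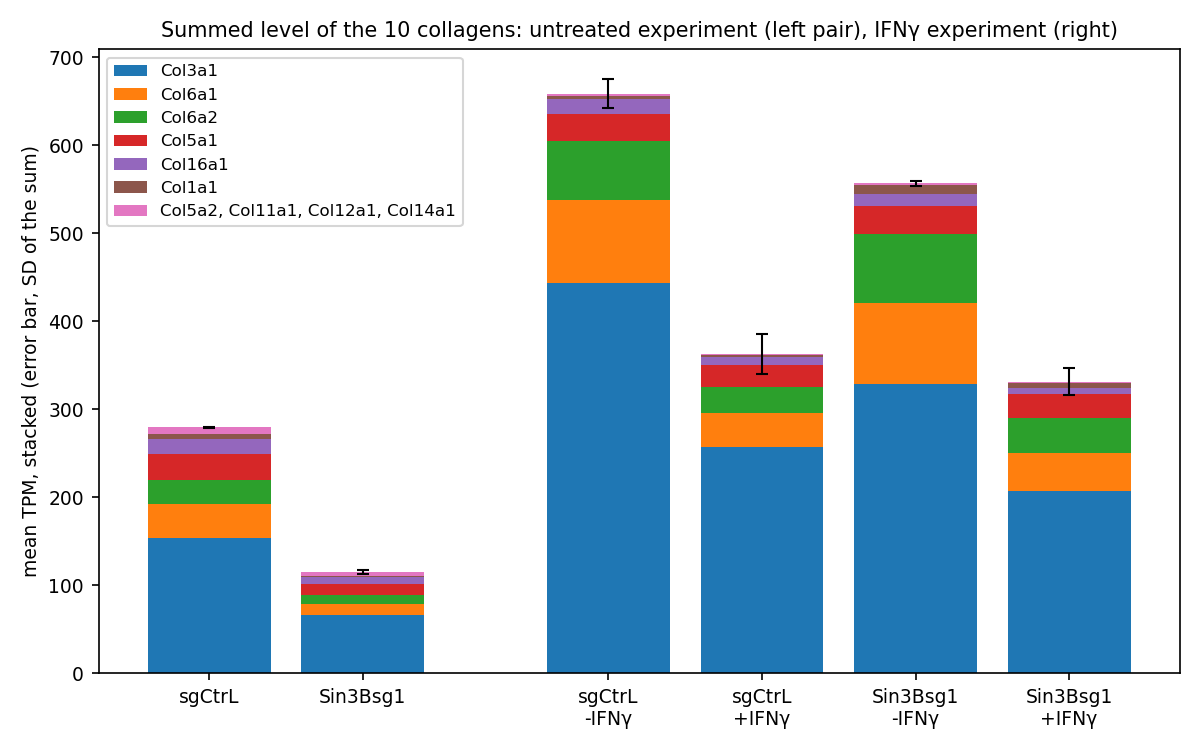
Stacked mean TPM (y axis) of the 10 collagens in the 6 groups (x axis), with the SD of the sum as error bars (n = 2 in the left pair, n = 3 in the right 4). Col3a1 fills most of every bar, and the sum is 659 TPM without and 363 TPM with IFNγ in sgCtrL, and 557 and 331 TPM in Sin3Bsg1.

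IFNγ lowered most of the collagens in sgCtrL cells. In edgeR's quasi-likelihood fit of the 12 libraries, 7 of the 9 tested genes fell with an adjusted p under 0.05, while 14.5% of the 14913 genes tested fell. The median log2 fold change of the 9 was -0.79, against -0.00060 over all genes. The libraries with and without IFNγ did not overlap for 7 of the 9, all lower with IFNγ, a pattern that 20.7% of all genes showed. Because the members were chosen with earlier results of these data known, these counts are not independent evidence of the direction.

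The type VI chains had the largest fold changes. Col6a1, the alpha 1 chain, had 177, 175 and 177 CPM in the sgCtrL libraries without IFNγ and 78.6, 75.2 and 74.9 CPM with it. The groups were far apart, and the level with IFNγ was 43.2% of that without (log2 fold change -1.21 ± 0.048 SE, edgeR adjusted p = 1.04e-11). Col6a2, the alpha 2 chain that joins alpha 1 in the same trimer, had 125, 123 and 118 CPM without IFNγ and 58.6, 54.1 and 55.2 CPM with it (log2 fold change -1.13 ± 0.047 SE, edgeR adjusted p = 1.95e-11). Both chains thus fell, and the TPM ratio of Col6a1 to Col6a2 was 1.39 ± 0.0453 without and 1.31 ± 0.0244 with IFNγ (SD, n = 3 in each group). This ratio was slightly lower with IFNγ, at 1.29 to 1.34 against 1.36 to 1.44, without overlap. Col6a3, a type VI chain outside the 10 genes, rose with IFNγ in sgCtrL (log2 fold change 2.001, edgeR adjusted p = 3.75e-09).

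Among the fibrillar collagens, Col3a1 had 1151, 1118 and 1109 CPM without IFNγ and 748, 644 and 673 CPM with it. The highest value with IFNγ was that of replicate 1, the library that stood apart, and all values with IFNγ were below all values without it (log2 fold change -0.71 ± 0.049 SE, edgeR adjusted p = 1.42e-08). Without that library the change was -0.78. Col1a1 had 12.2, 12.2 and 10.6 CPM without IFNγ and 6.46, 6.35 and 6.40 CPM with it, a log2 fold change of -0.87 ± 0.093 (SE, edgeR adjusted p = 2.59e-06). Col5a1, whose chain helps to start collagen fibrils, changed less, from 114 to 116 CPM without IFNγ to 94.96 to 105 CPM with it (log2 fold change -0.20 ± 0.049 SE, edgeR adjusted p = 0.00630). Col11a1, a minor fibrillar chain best known from cartilage, lay at 0.960 to 1.18 CPM without and 0.982 to 1.35 CPM with IFNγ. Its interval ran from -0.63 to 0.78 on the log2 scale. At 20 to 30 counts per library, changes of either direction within that interval were not resolved.

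The fibril-associated collagens Col16a1 and Col12a1 fell as well. Col16a1, a minor collagen that associates with fibrils, had 42.4, 38.0 and 40.2 CPM without IFNγ and 19.4, 27.1 and 22.8 CPM with it (log2 fold change -0.79 ± 0.089 SE, edgeR adjusted p = 4.78e-06). Its spread among libraries with IFNγ was wide, with replicate 1 the lowest, and the change was -0.69 without that library. Col12a1, which binds along type I fibrils, had 7.39, 7.30 and 6.52 CPM without and 3.53, 4.53 and 3.78 CPM with IFNγ (log2 fold change -0.84 ± 0.16 SE, edgeR adjusted p = 0.00105). Col14a1, a related fibril-surface collagen, ran from 1.54 to 2.46 CPM without and 1.04 to 1.85 CPM with IFNγ, groups that overlapped (log2 fold change -0.50 ± 0.31 SE, edgeR adjusted p = 0.261).

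In Sin3Bsg1 cells, 6 of the 9 tested genes fell with IFNγ, against 12.3% of all genes tested, and their median log2 fold change was -0.77, against 0.0052 over all genes. For 7 of the 9 every library with IFNγ lay below every library without it, as for 21.1% of all genes. As in sgCtrL, these counts are not independent evidence of the direction. Col6a1 fell from 172, 175 and 160.0 CPM to 86.7, 80.5 and 84.99 CPM (log2 fold change -1.01 ± 0.048 SE, edgeR adjusted p = 9.28e-11), and Col6a2 from 145, 142 and 136 CPM to 75.9, 74.0 and 75.2 CPM (-0.91 ± 0.046 SE, edgeR adjusted p = 2.23e-10). These type VI values again left a wide gap between libraries with and without IFNγ. Col3a1 fell from 812, 820.5 and 839 CPM to 558, 561 and 545 CPM (log2 fold change -0.57 ± 0.049 SE, edgeR adjusted p = 1.97e-07).

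Col1a1 was higher in Sin3Bsg1 than in sgCtrL both with and without IFNγ, and it still fell with the cytokine, from 29.7, 30.8 and 30.3 CPM to 17.4, 20.7 and 17.7 CPM (log2 fold change -0.70 ± 0.076 SE, edgeR adjusted p = 2.85e-06). Col16a1 fell from 29.2 to 30.7 CPM to 17.0 to 17.3 CPM (log2 fold change -0.80 ± 0.092 SE, edgeR adjusted p = 5.39e-06), and Col12a1 from 1.91 to 2.59 CPM to 1.12 to 1.46 CPM (-0.77 ± 0.20 SE, edgeR adjusted p = 0.00777). The 3 genes that did not pass were Col5a1 (log2 fold change -0.13 ± 0.048 SE, edgeR adjusted p = 0.0625), Col14a1 (-0.89 ± 0.32 SE, 0.0507) and Col11a1 (-0.15 ± 0.32 SE, 0.785). For Col5a1 and Col14a1 the adjusted p crossed the threshold under several alternatives, and leaving out replicate 1 of sgCtrL with IFNγ, which enters this contrast only through the shared spread, gave 0.0177 and 0.0309.

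**Figure D2:**
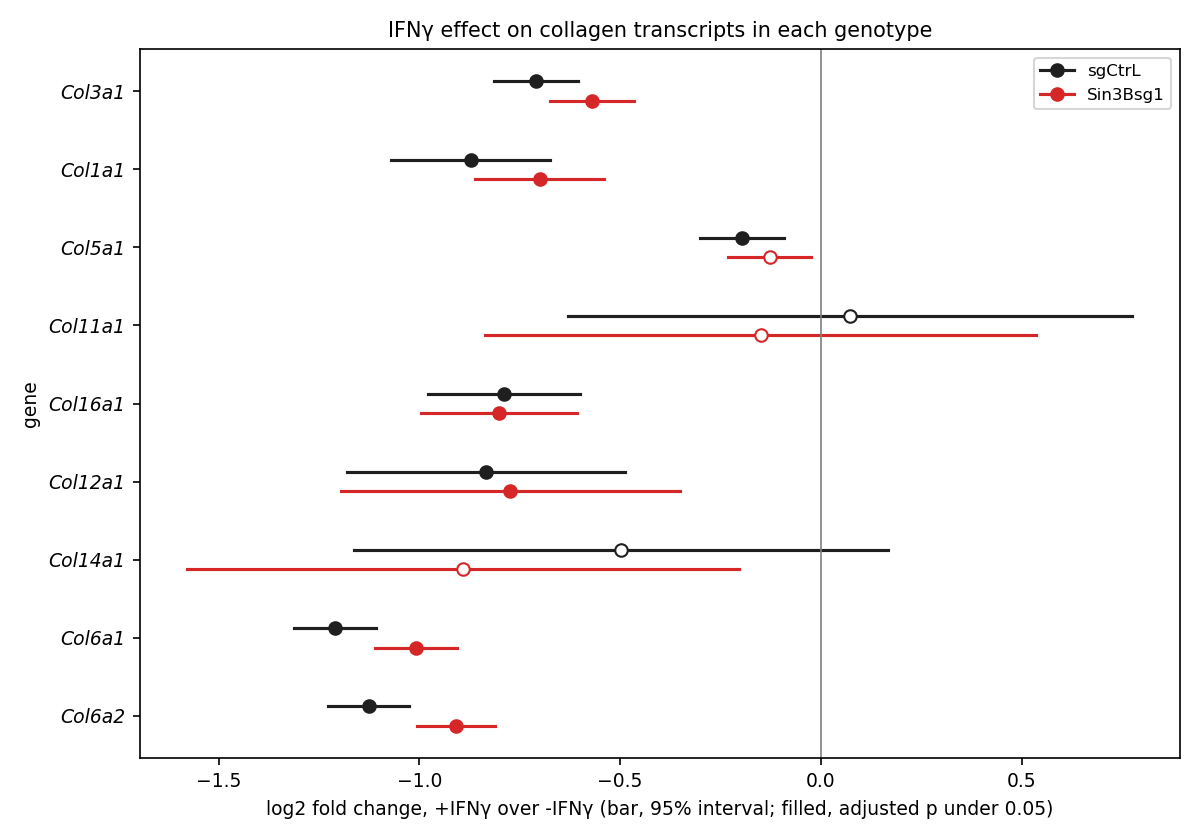
Log2 fold change with IFNγ over without (x axis) for the 9 tested collagens (y axis) in sgCtrL (black) and Sin3Bsg1 (red), with 95% intervals, filled where the edgeR adjusted p was under 0.05. Points of the 2 genotypes lie side by side for each gene, from -1.21 and -1.01 for Col6a1 to 0.07 and -0.15 for Col11a1.

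Whether the cytokine acted differently in the 2 genotypes was tested as the interaction of knockout and IFNγ. None of the 9 tested collagens passed in edgeR, where 0.114% of all genes did, and 2 had an unadjusted p under 0.05, as did 5.42% of all genes. DESeq2 likewise called 0 of the collagens and gave 2 an unadjusted p under 0.05, as it did 2.32% of the 27916 genes it gave a p. In both tools these were Col6a1, with an interaction of 0.20 on the log2 scale (95% interval 0.06 to 0.35, edgeR adjusted p = 0.676), and Col6a2, with 0.22 (0.08 to 0.36, edgeR adjusted p = 0.568), positive values meaning a smaller fall in Sin3Bsg1. For Col3a1 the interval of the difference ran from -0.01 to 0.29, for Col5a1 from -0.08 to 0.22, for Col1a1 from -0.08 to 0.43 and for Col16a1 from -0.28 to 0.26. The intervals were wider for Col12a1 (-0.50 to 0.63), Col14a1 (-1.35 to 0.56) and Col11a1 (-1.21 to 0.76), and those of Col14a1 and Col11a1 included a 2-fold larger fall in Sin3Bsg1.

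In the untreated experiment Sin3B knockout went with lower levels of nearly every collagen tested. In the fit of its 4 libraries 8 of the 9 were lower in Sin3Bsg1 past the threshold, against 16.0% of the 14589 genes tested, and their median log2 fold change was -1.20, against 0.0024 over all genes. The study reported lower collagens from RNA-seq of control and Sin3B-deficient cells. It also reported lower levels of selected collagens by RT-PCR in cultured cells, orthotopic tumors and tumor cells sorted from such tumors. The members here were chosen with earlier results of these data known. The count of 8 is therefore not independent evidence of the direction. Col6a1 had 79.1 and 76.6 CPM in sgCtrL and 21.8 and 26.2 CPM in Sin3Bsg1, 30.8% of the control level, and Col6a2 had 51.9 and 51.5 CPM against 20.5 and 19.0 CPM. Replicates lay close together beside the gap between the groups (log2 fold change -1.70 ± 0.065 and -1.39 ± 0.061 SE, edgeR adjusted p = 1.21e-11 and 5.66e-11).

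The 4 fibrillar genes tested fell in the untreated experiment. Col3a1 had 416 and 415 CPM in sgCtrL and 179 and 181 CPM in Sin3Bsg1, groups whose replicates almost coincided (log2 fold change -1.20 ± 0.023 SE, edgeR adjusted p = 5.24e-15). Col1a1 had 16.7 and 18.1 CPM against 5.605 and 5.73 CPM (log2 fold change -1.62 ± 0.11 SE, edgeR adjusted p = 6.27e-09). Col5a1 had 121 and 121 CPM against 50.7 and 47.3 CPM (log2 fold change -1.31 ± 0.041 SE, edgeR adjusted p = 1.05e-12). Col11a1 was scarcer, at 5.04 and 4.63 CPM against 2.40 and 2.23 CPM, and fell as well (log2 fold change -1.06 ± 0.19 SE, edgeR adjusted p = 4.51e-04).

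Of the fibril-associated genes, Col16a1 had 40.4 and 43.5 CPM in sgCtrL and 19.7 and 20.7 CPM in Sin3Bsg1 (log2 fold change -1.06 ± 0.067 SE, edgeR adjusted p = 4.41e-09), and Col14a1 had 19.3 and 19.1 CPM against 10.4 and 12.3 CPM (-0.76 ± 0.097 SE, edgeR adjusted p = 1.50e-05). Col12a1 was the exception, at 40 and 38 counts against 29 and 18 counts (log2 fold change -0.82, 95% interval -1.60 to -0.04, edgeR adjusted p = 0.105). Leaving out any 1 of the 4 libraries kept the count at 8 lower, in fits where the lone library of a group was assumed to vary like the other group.

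The same knockout comparison in the IFNγ experiment gave other directions and sizes. Without IFNγ, 3 of the 9 tested collagens were lower in Sin3Bsg1 past the threshold, where 9.32% of all genes were, and 2 were higher, where 7.89% were. Counts from this experiment are likewise of members chosen with earlier results of these data known. Col12a1 fell the most, from 7.39, 7.30 and 6.52 CPM in sgCtrL to 2.59, 1.91 and 2.11 CPM (log2 fold change -1.68 ± 0.17 SE, edgeR adjusted p = 4.44e-06). Col3a1 fell to 73.2% of the control level (log2 fold change -0.45 ± 0.049 SE, edgeR adjusted p = 8.20e-06), with 812 to 839 CPM against 1109 to 1151 CPM. Col16a1 fell to 74.5% (log2 fold change -0.43 ± 0.087 SE, edgeR adjusted p = 0.00271).

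Col1a1 went the other way in the IFNγ experiment. It had 29.7, 30.8 and 30.3 CPM in Sin3Bsg1 without IFNγ against 12.2, 12.2 and 10.6 CPM in sgCtrL, and was 2.58-fold higher (log2 fold change 1.37 ± 0.081 SE, edgeR adjusted p = 1.23e-08). With IFNγ it was 2.91-fold higher (1.54 ± 0.088 SE, edgeR adjusted p = 9.18e-09), at 17.4, 20.7 and 17.7 CPM against 6.46, 6.35 and 6.40 CPM. Groups were well separated in both settings, and the TPM ratio of Col3a1 to Col1a1 was 103 ± 7.20 in sgCtrL and 29.0 ± 0.573 in Sin3Bsg1 without IFNγ (SD, n = 3 in each group). Col6a2 was higher too, by 0.21 ± 0.045 without IFNγ and 0.42 ± 0.047 with it on the log2 scale (edgeR adjusted p = 0.00446 and 1.26e-05).

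The rest did not pass in the IFNγ experiment. Without the cytokine Col6a1 had a knockout log2 fold change of -0.06 (95% interval -0.16 to 0.04), Col5a1 0.06 (-0.04 to 0.16), Col11a1 0.12 (-0.58 to 0.81) and Col14a1 -0.18 (-0.83 to 0.47). The intervals of Col6a1 and Col5a1 were narrow and lay far from their values in the untreated experiment. With IFNγ the same 5 genes passed in the same directions, 3 lower (7.89% of all genes) and 2 higher (8.62%): Col12a1 (-1.61 ± 0.19 SE), Col16a1 (-0.44 ± 0.094 SE), Col3a1 (-0.31 ± 0.049 SE), Col6a2 and Col1a1. Without the sgCtrL replicate that stood apart, Col6a1 with IFNγ was also higher past the threshold (0.18 on the log2 scale, edgeR adjusted p = 0.0168, against 0.14 and 0.0585 with it).

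**Figure D3:**
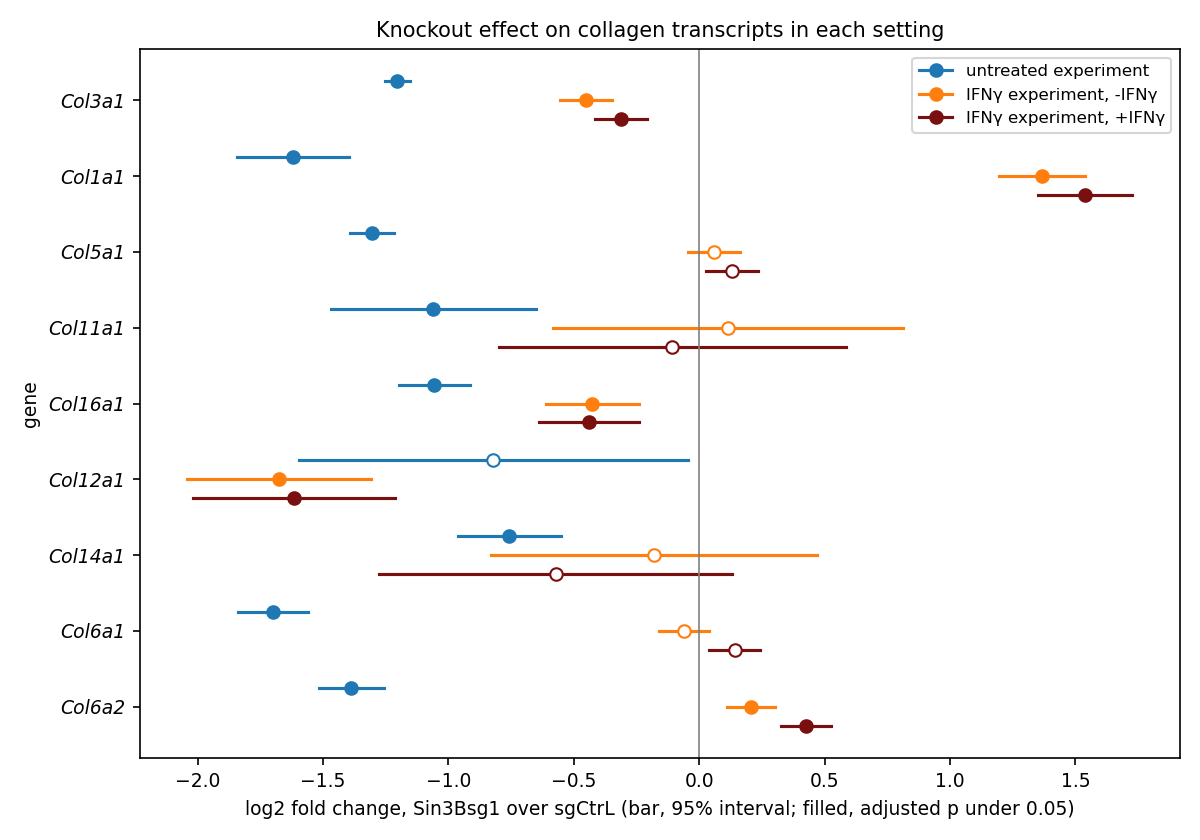
Log2 fold change of Sin3Bsg1 over sgCtrL (x axis) for the 9 tested collagens (y axis) in the untreated experiment (blue) and in the IFNγ experiment without (orange) and with IFNγ (dark red), with 95% intervals, filled where the edgeR adjusted p was under 0.05. Blue points lie between -1.70 and -0.76, while the orange and dark red points of Col1a1 lie at 1.37 and 1.54.

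The knockout effects of the experiments were then placed side by side. Of the 8 collagens lower in the untreated experiment, Col3a1 and Col16a1 were also lower in the IFNγ experiment without IFNγ, Col1a1 and Col6a2 were higher, and the other 4 did not pass. Of the 4 collagens past the threshold in both experiments, 2 had the same direction. Among all 13848 genes tested in both, 1487 passed in both and 89.5% of these had the same direction, and of the 2303 genes lower in the untreated experiment 31.1% were also lower and 3.56% were higher. Each experiment had its own control libraries in this comparison. Because the members were chosen with earlier results of these data known, their counts are not a fair sample to set against all genes.

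The difference itself was tested in a joint fit of the 10 libraries without IFNγ, in which each experiment kept its own control mean. The knockout effect was more positive in the IFNγ experiment for 6 of the 9 tested collagens, against 6.80% of 15264 genes. It was largest for Col1a1, 2.99 ± 0.12 on the log2 scale (SE, edgeR adjusted p = 1.39e-12), followed by Col6a1 (1.65 ± 0.076 SE), Col6a2 (1.60 ± 0.066 SE), Col5a1 (1.37 ± 0.054 SE), Col3a1 (0.76 ± 0.037 SE) and Col16a1 (0.64 ± 0.089 SE). Their edgeR adjusted p-values ran from 8.62e-13 to 4.17e-05. Col11a1 (1.18 ± 0.39 SE, edgeR adjusted p = 0.0516), Col14a1 (0.60 ± 0.27 SE, 0.163) and Col12a1 (-0.85 ± 0.35 SE, 0.128) did not pass. Since the members were chosen with earlier results of these data known, the count of 6 is not independent evidence of a difference between the experiments. The difference for Sin3b was 0.05 on the log2 scale (95% interval -0.10 to 0.20, edgeR adjusted p = 0.726).

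Control cells also differed between the experiments. On the common scale of the joint fit, sgCtrL without IFNγ had 2.83 times the Col3a1 level of untreated sgCtrL (1163 ± 22.6 against 411 ± 0.623 CPM), 2.37 times the Col6a1 level, 2.46 times the Col6a2 level and 5.59 times the Col12a1 level. Untreated sgCtrL in turn had 9.02 times the Col14a1 level (19.0 ± 0.129 against 2.10 ± 0.475 CPM) and 4.32 times the Col11a1 level. Col5a1 (120 ± 0.338 against 119 ± 1.001 CPM) and Col16a1 (41.5 ± 2.17 against 41.5 ± 2.24 CPM) lay at about the same level (SD, n = 2 and 3). The lines, cultures and sequencing of the experiments cannot be told apart here, so these ratios are a description without a test.

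**Figure D4:**
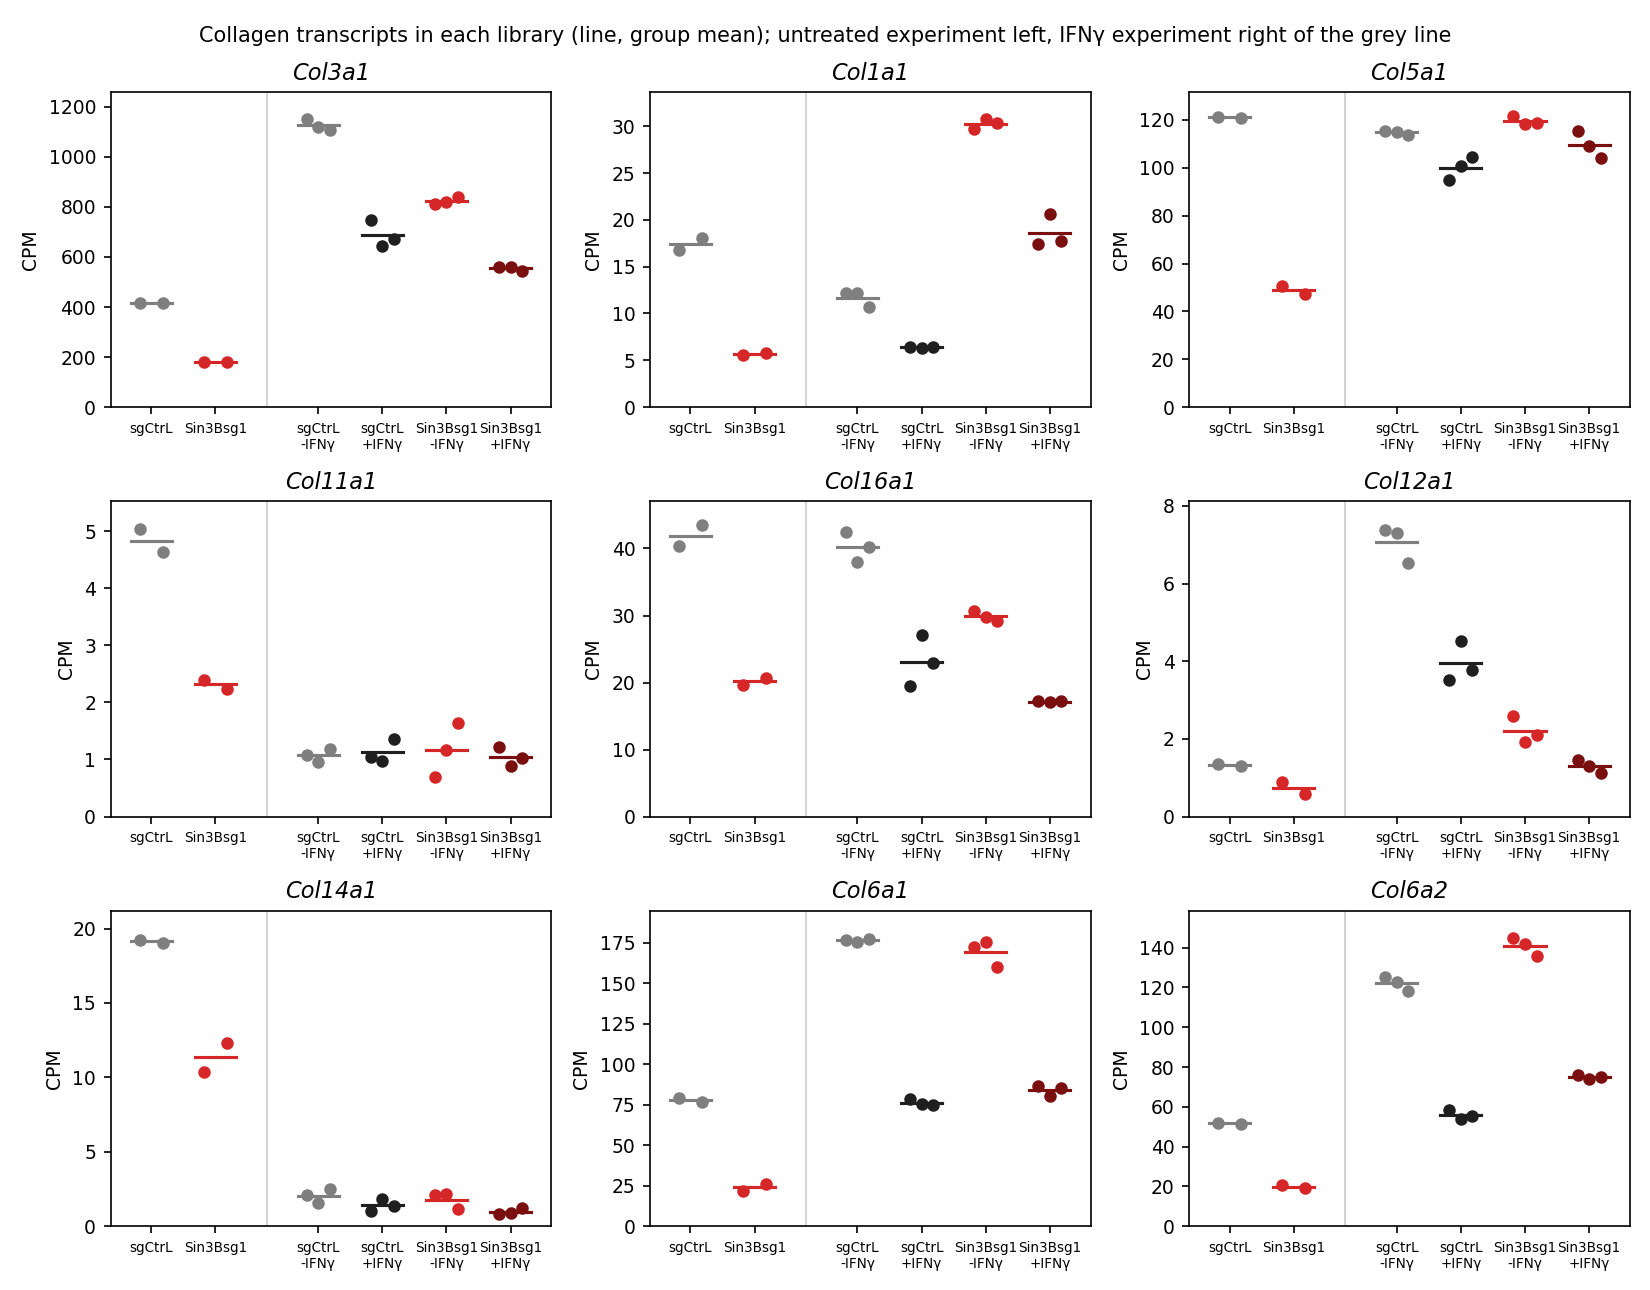
CPM (y axis, linear from 0) of the 9 tested collagens in each library (points) with group means (lines), for the untreated experiment left of the grey line and the IFNγ experiment right of it (x axis, groups). Col3a1 on the left lies at 179 to 181 CPM in Sin3Bsg1 against 415 to 416 CPM in sgCtrL, while Col1a1 on the right lies higher in Sin3Bsg1, at 29.7 to 30.8 CPM against 10.6 to 12.2 CPM.

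Markers of other cell types were measured beside these changes. Of 10 fibroblast markers all were in the tables, and their summed level was 101 CPM in both untreated sgCtrL libraries and 30.6 to 33.6 CPM in Sin3Bsg1, and 262 to 269 CPM in sgCtrL without IFNγ, 189 to 192 CPM in sgCtrL with IFNγ, 224 to 234 CPM in Sin3Bsg1 without IFNγ and 166 to 178 CPM in Sin3Bsg1 with IFNγ. The sum was mostly Pdgfra, the receptor for platelet-derived growth factor that marks many fibroblasts, which had 85.7 to 86.5 CPM in untreated sgCtrL and 24.2 to 25.9 CPM in untreated Sin3Bsg1. In the IFNγ experiment Pdgfra had 231 to 237 CPM in sgCtrL without and 163 to 166 CPM with IFNγ, and 188 to 198 CPM in Sin3Bsg1 without and 138 to 146 CPM with it. Pdgfrb, its sister receptor, had 13.0 to 13.8 CPM in untreated sgCtrL and 5.36 to 6.77 CPM in untreated Sin3Bsg1, and in the IFNγ experiment 30.4 to 30.8 and 34.3 to 35.6 CPM without IFNγ against 19.98 to 20.5 and 22.3 to 25.3 CPM with it, in sgCtrL and Sin3Bsg1. Both receptors thus lay lower where most of the collagens lay lower with IFNγ and in the untreated knockout. Acta2, smooth muscle actin, lay higher with IFNγ, from 0.216 to 0.459 CPM to 5.001 to 6.19 CPM in sgCtrL and from 0.343 to 0.653 CPM to 4.97 to 5.50 CPM in Sin3Bsg1. Of the other 7 markers, Postn and Tcf21 had 0 counts in all 16 libraries, Fap and Lum at most 3, Dcn at most 6, Thy1 at most 12 and Pdpn at most 32 counts in a library. Between 4 and 6 of the 10 markers were at 3 counts or fewer in every library of a group. The 5 pericyte or stellate markers summed to 6.07 to 8.39 CPM in the untreated libraries. In the IFNγ experiment they summed to 3.15 to 3.76 CPM without and 1.06 to 1.74 CPM with IFNγ in sgCtrL, and to 3.31 to 4.13 CPM and 0.988 to 1.70 CPM in Sin3Bsg1, lower with IFNγ without overlap in both genotypes. The 4 endothelial markers summed to at most 0.918 CPM and the 6 immune markers to 4.37 to 7.06 CPM. The 7 ductal markers summed to 4733 to 4756 CPM in untreated sgCtrL and 6355 to 6401 CPM in Sin3Bsg1, and to 3182 to 3211 CPM and 3422 to 3536 CPM in sgCtrL and Sin3Bsg1 without IFNγ. With IFNγ they summed to 3285 to 3830 CPM in sgCtrL and 4332 to 4569 CPM in Sin3Bsg1, above the libraries without IFNγ in both genotypes. In sgCtrL Krt18 had 677 to 692 CPM without and 1053 to 1248 CPM with IFNγ. In Sin3Bsg1 it had 757 to 780 CPM and 1447 to 1520 CPM. Krt8 was also higher in Sin3Bsg1 and overlapped in sgCtrL. By contrast, Krt19, Krt7, Cdh1 and Sox9 were lower with IFNγ without overlap in both genotypes. Epcam was lower without overlap in Sin3Bsg1 and overlapped in sgCtrL. The part of these markers in the collagen changes was not tested.

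Related genes were read against the share of all genes that passed in either direction, which was 31.2% for the knockout in the untreated experiment, 17.2% without IFNγ and 16.5% with it, and 30.2% for IFNγ in sgCtrL and 28.4% in Sin3Bsg1. Other collagens moved in both directions. Of 34 further collagen genes, 15 were tested in the untreated experiment, with 5 higher and 3 lower in Sin3Bsg1, and 16 in the IFNγ experiment, with 7 lower and 4 higher with IFNγ in each genotype (median log2 fold change -0.41 in sgCtrL and -0.26 in Sin3Bsg1). Col6a3, the large alpha 3 chain of type VI collagen, rose with IFNγ from 5.13 ± 0.998 to 20.6 ± 0.745 CPM in sgCtrL and from 7.85 ± 0.610 to 23.3 ± 2.91 CPM in Sin3Bsg1 (SD, n = 3), changes of 2.001 and 1.57 on the log2 scale (edgeR adjusted p = 3.75e-09 and 2.39e-08), while Col6a1 and Col6a2 fell. Col8a1, a short-chain collagen, rose by 1.70 and 1.76 on the log2 scale (edgeR adjusted p = 1.60e-11 and 6.14e-12). Col4a5, a basement membrane chain, fell by 1.16 and 1.07 (edgeR adjusted p = 3.86e-09 and 3.99e-09).

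Genes that fold and modify the collagen triple helix were followed as well. Of 19 of them, 18 were tested in the untreated experiment, where 10 were lower and 1 higher in Sin3Bsg1 (median -0.22), and all 19 in the IFNγ experiment, where 1 was lower and 2 were higher without IFNγ (median -0.01). P4ha3 and P4ha1, subunits of prolyl 4-hydroxylase, fell by 0.58 and 0.32 on the log2 scale in the untreated experiment (edgeR adjusted p = 8.04e-05 and 2.76e-05). Serpinh1, the collagen chaperone HSP47, fell with IFNγ from 198 ± 5.03 to 148 ± 5.18 CPM in sgCtrL and from 218 ± 7.53 to 171 ± 3.30 CPM in Sin3Bsg1 (SD, n = 3, edgeR adjusted p = 2.58e-06 and 1.95e-05). With IFNγ, 5 of the 19 were lower and 2 higher in sgCtrL, and 7 lower and 2 higher in Sin3Bsg1.

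Of 13 procollagen-processing and cross-linking genes, 5 of 8 tested were lower and 1 higher in untreated Sin3Bsg1. The lysyl oxidase family member Loxl4 was lower in Sin3Bsg1 in each setting, by 0.70 in the untreated experiment, 0.48 without IFNγ and 0.38 with IFNγ on the log2 scale (edgeR adjusted p = 9.24e-12, 1.34e-06 and 1.59e-05). With IFNγ, 2 of 7 fell in sgCtrL and 3 of 7 in Sin3Bsg1, among them Bmp1, the procollagen C-proteinase, which fell by 0.40 and 0.42 (edgeR adjusted p = 1.03e-04 and 4.77e-05).

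Among collagen receptors, the integrin subunits Itga1 and Itga2 rose in untreated Sin3Bsg1 by 1.87 and 1.07 on the log2 scale (edgeR adjusted p = 7.66e-11 and 7.92e-09), the 2 of 6 tested that passed. In the IFNγ experiment without IFNγ the 2 of 7 that passed were Ddr1, a collagen-binding kinase, higher by 0.21, and Mrc2, an endocytic collagen receptor, lower by 0.58 (edgeR adjusted p = 0.0111 and 1.79e-04). Of 12 fibril-associated matrix proteins all 6 tested passed in the untreated experiment, 4 lower and 2 higher. Sparc, which binds collagen, fell in Sin3Bsg1 in each setting, by 0.77, 0.27 and 0.31 (edgeR adjusted p = 1.15e-12, 1.23e-04 and 3.70e-05), and Prelp, a leucine-rich proteoglycan, fell with IFNγ by 1.56 and 1.47 (edgeR adjusted p = 1.92e-10 and 1.08e-10). Of 12 transcription factors known from collagen promoters, 11 were tested in the untreated experiment, where Smad3 and Yy1 rose by at most 0.09, and 5 of 12 passed with IFNγ in each genotype, 3 higher and 2 lower, where 30.2% and 28.4% of all genes passed. Rfx5 and Rfxank encode subunits of the same DNA-binding complex and moved in opposite directions. Rfx5 rose by 0.64 in sgCtrL and 0.84 in Sin3Bsg1 (edgeR adjusted p = 3.55e-04 and 2.04e-05), while Rfxank fell by 0.40 and 0.27 (edgeR adjusted p = 1.87e-04 and 0.00489). Nfyb, a subunit of the factor that binds the CCAAT box, rose by 0.32 and 0.28 (edgeR adjusted p = 0.0112 and 0.0269).

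The genes whose pattern was most like that of Col3a1 over the 12 libraries of the IFNγ experiment were Aebp1, Plpp3, Klhl24, Emilin2 and Slco4a1, among 10502 genes compared. Likeness was the root mean square difference of log2 CPM after centring each gene on its mean, and it ran from 0.0699 for Aebp1 to 0.0864 for Slco4a1. Among the members the nearest was Col16a1 at 0.17, followed by Col6a1 at 0.32, and Col1a1 was the farthest of those compared at 0.89. Aebp1, a secreted collagen-binding protein, had mean levels of 168 CPM in sgCtrL, 113 CPM in sgCtrL with IFNγ, 123 CPM in Sin3Bsg1 and 81.9 CPM in Sin3Bsg1 with IFNγ.

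Antisense or overlapping annotated RNAs share 1.08 to 4.56% of the exon bases of Col3a1, Col5a1, Col11a1, Col12a1, Col14a1 and Col16a1 in GENCODE vM39. Reads from those on the opposite strand cannot be told apart from the collagens without strand information. Gm54819, a microRNA gene on the same strand as Col3a1, shares 1.37% of the Col3a1 exon bases, and strand information would not separate its reads.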

How the data were processed

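RNA-seq was measured in 16 KPC1199 libraries of 2 experiments. The authors deposited estimated counts per gene, not normalized, with gene lengths in bases and the mean of each group. The submitters' notes name fastp, HISAT2, StringTie, DESeq2 and build mm39, while the paper's methods name HISAT2 on mm9 and a feature counts program; strand setting and versions are not given in the sources used here, so gene positions from the files were not used. Control columns are named after a lacZ guide, and by elimination they were read as sgCtrL. The 6 mean columns were left out, and so were 324 assembled loci without a gene (0.615 to 0.677% of the counts of an untreated library).

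Counts were rounded to whole numbers and fitted with edgeR 4.0.16 (TMM, filterByExpr, glmQLFit, glmQLFTest, R 4.3.3). Tests were two-sided, p-values were adjusted by Benjamini-Hochberg over all genes tested, and the threshold was 0.05. Separate fits took the 4 untreated libraries, the 12 of the IFNγ experiment with a mean per group, and, for the difference between experiments, the 10 without IFNγ. The standard error was taken as the size of the log2 fold change divided by the root of F. CPM are TMM-scaled, and TPM were computed from the counts and lengths. The floor was 3 counts per library. The biological coefficient of variation was 2.84% in the untreated and 6.78% in the IFNγ experiment.

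All 10 members were named in every comparison. From each list of related genes the text names genes among the 3 that changed most among those past the threshold and averaging 5 CPM or more, and Col3a1-like genes are the 5 nearest, with 0.5 CPM added before the log. The members and lists were chosen with earlier results of these data known. Alternatives were DESeq2 1.42.0, its size factors in edgeR, no filter, at least 10 counts in every library, each library left out, the replicate number as a block, fits of only the 6 libraries compared, and limma 3.58.1 voom. The fits were tested on simulated data. Python 3.11.15 with numpy 2.4.6, pandas 2.3.3 and matplotlib 3.10.9 made the tables and plots. Some items are not reported here.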

Additional observations from a re-analysis of the deposited data

Results flagged for a closer look

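The effect of the Sin3B guide without IFNγ differed between the experiments for 6 collagens, by the test of the difference itself in the joint fit of 10 libraries. The difference, IFNγ experiment minus untreated experiment on the log2 scale, was 2.99 for Col1a1, 1.65 for Col6a1, 1.60 for Col6a2, 1.37 for Col5a1, 0.76 for Col3a1 and 0.64 for Col16a1 (edgeR adjusted p = 1.39e-12, 8.86e-12, 1.39e-12, 8.62e-13, 1.85e-11 and 4.17e-05). For Col1a1 and Col6a2 the knockout effect passed the threshold in both experiments with opposite directions, and for Col3a1 and Col16a1 it passed in both as a fall. Experiment, culture and sequencing cannot be told apart from each other, and their part in the difference was not tested. As the members were chosen with earlier results of these data known, the count of 6 is not independent evidence of a difference.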

How the results depend on the processing

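The 63 log2 fold changes of the tested collagens were computed again under the alternatives, giving 1026 values, of which 992 kept their direction and their side of the threshold. The number of collagens past the threshold stayed at 8 in the untreated experiment, 5 for the knockout without IFNγ, 7 for IFNγ in sgCtrL and 0 for the interaction, and ran from 5 to 6 for the knockout with IFNγ, 6 to 8 for IFNγ in Sin3Bsg1 and 6 to 7 for the difference between experiments. Of the 34 changed values, 21 passed the threshold where the main value had not, for Col5a1, Col14a1, Col6a1 and Col11a1. The other 13 changed sign, each in a gene that had not passed, when 1 library was left out.

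With 1 library left out, Col11a1 ran from -0.21 to 0.39 for the knockout without IFNγ, from -0.23 to 0.044 for the knockout with IFNγ, from -0.076 to 0.16 for IFNγ in sgCtrL, from -0.43 to 0.18 for IFNγ in Sin3Bsg1 and from -0.50 to 0.10 for the interaction. Col14a1 ran from -0.35 to 0.064 for the knockout without IFNγ. The interaction ran from -0.061 to 0.20 for Col12a1 and from -0.12 to 0.10 for Col16a1. Over all genes, fits of only the 6 libraries compared called 3995 for the knockout without IFNγ and 1500 with it, where 2567 and 2463 were called, a change in the samples that share the spread. The interaction called 17 genes, 32 with DESeq2, 115 with no filter and from 1 to 33 with a library left out, the highest without replicate 1 of sgCtrL with IFNγ. The cause was not tested.

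Same-numbered replicates correlated between -0.029 and 0.119 in their deviations from the group means, so the numbers were not taken to pair the samples. With the replicate block the counts over all genes were 4671 for the untreated experiment, 2511 and 2389 for the knockout without and with IFNγ, 4400 and 4207 for IFNγ, 13 for the interaction and 1981 between experiments, and no call on a collagen changed. Counts of 18 to 68 in some libraries limit Col11a1, Col12a1 and Col14a1.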
